A study of Homo sapiens with 4 samples.

Results

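HGC-27 is a human gastric cancer (GC) cell line, and rIL-17B is recombinant interleukin-17B, a cytokine that binds the receptor IL-17RB. The study asked what rIL-17B does to GC cells with stem cell properties, and its RNA sequencing compared HGC-27 cells given 200 ng/ml rIL-17B for 48 h with cells given PBS for 48 h, with 2 libraries per group. The 174 genes described here were chosen by their level in 1 library, rIL-17B replicate 1. They are the genes with at least 3000 counts summed over both PBS libraries and rIL-17B replicate 1 whose CPM in that library, after 0.5 CPM was added, had a log2 ratio of at least 0.9 to the PBS mean. CPM is the count divided by the library total and scaled to 1e6. Of 31907 gene names with a count, 3343 reached the count minimum and 191 also reached the ratio. The rule then dropped 17 names by their first letters, among them 6 keratins and 5 MCM helicase genes, which left 174 members, or 5.20% of the 3343. The ratio of rIL-17B replicate 1 to PBS chose the members, so it is given below as a description without a test.

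The members that stood out by number were genes of cell division. A dividing cell first copies its DNA with replication enzymes and a supply of nucleotides, and then separates the copies on a spindle of microtubules moved by kinesin motors. Cyclin B with its kinase starts mitosis, the spindle checkpoint holds it until all chromosomes are attached, and CDC20 with the anaphase-promoting complex ends it. Many of these genes are switched on together in G2 by the B-MYB-FOXM1 complex. It acts through a promoter element called the cell cycle genes homology region (CHR), often placed downstream of CCAAT boxes bound by NF-Y.

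Promoters of 5 members are shown, 3 with CHR letters downstream of a CCAAT box and 2 that differ from this. The lines give RefSeq sequence of GRCh38.p14, 250 bases before to 50 bases after the start of each gene, 5′ to 3′ on the strand of the gene. Capitals mark the CHR letters TTTGAA, the CCAAT box, both on either strand, and in ACTC1 the TATA box letters TATAAA. They are shown because the CHR letters were more frequent in promoters of members than in promoters of all genes with the count minimum, as given further on.
CCNB2: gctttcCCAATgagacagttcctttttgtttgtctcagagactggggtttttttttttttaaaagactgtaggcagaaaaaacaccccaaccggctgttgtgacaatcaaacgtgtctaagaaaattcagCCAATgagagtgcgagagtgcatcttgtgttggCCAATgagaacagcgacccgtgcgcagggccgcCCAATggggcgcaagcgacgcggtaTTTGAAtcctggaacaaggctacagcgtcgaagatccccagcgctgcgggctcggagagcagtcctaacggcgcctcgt
PLK1: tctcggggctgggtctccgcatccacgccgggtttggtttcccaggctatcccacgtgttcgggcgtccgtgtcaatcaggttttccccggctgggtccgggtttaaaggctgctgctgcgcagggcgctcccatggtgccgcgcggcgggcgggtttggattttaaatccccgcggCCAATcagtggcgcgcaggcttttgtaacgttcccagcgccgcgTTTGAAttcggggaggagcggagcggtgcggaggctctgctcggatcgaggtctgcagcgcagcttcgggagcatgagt
CDC20: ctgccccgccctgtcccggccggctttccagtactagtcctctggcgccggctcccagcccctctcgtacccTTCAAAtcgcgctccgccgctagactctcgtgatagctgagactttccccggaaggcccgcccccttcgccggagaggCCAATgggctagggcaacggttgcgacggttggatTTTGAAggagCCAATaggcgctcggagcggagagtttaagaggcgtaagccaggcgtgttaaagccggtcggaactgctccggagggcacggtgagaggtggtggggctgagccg
CCNB1: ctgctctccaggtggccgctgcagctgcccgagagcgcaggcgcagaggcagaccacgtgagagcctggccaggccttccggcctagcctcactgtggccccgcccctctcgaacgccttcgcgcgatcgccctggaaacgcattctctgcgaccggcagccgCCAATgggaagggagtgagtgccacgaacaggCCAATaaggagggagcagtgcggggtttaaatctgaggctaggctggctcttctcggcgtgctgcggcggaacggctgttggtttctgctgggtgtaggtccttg
ACTC1: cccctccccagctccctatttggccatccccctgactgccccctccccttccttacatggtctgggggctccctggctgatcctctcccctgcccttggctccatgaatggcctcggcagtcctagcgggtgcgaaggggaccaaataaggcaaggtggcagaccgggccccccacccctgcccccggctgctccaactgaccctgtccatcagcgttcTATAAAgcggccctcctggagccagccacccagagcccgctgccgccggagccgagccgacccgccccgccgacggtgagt
CCNB2, at chr15:59104896-59105195 on the plus strand, held 4 CCAAT boxes and the CHR letters 29 bases before its start. PLK1, at chr16:23678639-23678938 on the plus strand, had the CHR letters at the same distance and 1 CCAAT box at 73 bases before the start. CDC20, at chr1:43358731-43359030 on the plus strand, held the CHR letters at 178 and 65 bases before its start. Its CCAAT boxes were at 100 and 55 bases before the start, so the latter box lay downstream of both CHR matches. CCNB1, at chr5:69166900-69167199 on the plus strand, had 2 CCAAT boxes and no exact CHR letters in this window. ACTC1, at chr15:34795500-34795799 on the minus strand, had none of these letters and a TATA box 31 bases before its start.

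The libraries held 15904594 and 12888029 counts with PBS and 14615341 and 17555879 with rIL-17B, and 3 counts, taken as the smallest level a library can show, were 0.171 to 0.233 CPM. Nothing in the labels says that the 2 libraries of a group came from separate cultures, so p-values measure the spread between these libraries, which may be technical. rIL-17B replicate 1 stood apart from the other 3 libraries, and the files do not show whether it came from a different culture or carries a wrong label, which bears on every value of that library and on the choice of members. Of 16361 genes tested, 3464 and 3609 were at least 2-fold apart between it and the PBS libraries and 2771 between it and rIL-17B replicate 2, against 104 between the PBS libraries and 78 and 292 between rIL-17B replicate 2 and the PBS libraries. Marker lists of several cell types differed in it. The 15 mesenchymal markers summed to 58203 and 57114 CPM with PBS, 1282 CPM in rIL-17B replicate 1 and 48721 CPM in rIL-17B replicate 2, and 14 of them lay below both PBS libraries in replicate 1. The 15 epithelial markers summed to 795 and 804 CPM with PBS, 1851 CPM in replicate 1 and 1022 CPM in replicate 2, of which the keratins KRT8 and KRT18 made up most, and ESRP1, GRHL2, CLDN3, OVOL1 and RAB25 were at or under 3 counts in every library. Summed endothelial markers were 32.9 and 40.8 CPM with PBS, 1.16 CPM in replicate 1 and 27.1 CPM in replicate 2, neuronal and glial markers 227 and 306, 58.9 and 171 CPM, and hepatocyte markers, nearly all from CPS1, 1088 and 1022, 2483 and 1380 CPM in the same order. Of 12 stomach markers, 8 were at or under 3 counts in all 4 libraries, among them TFF1, TFF2, GKN1, GKN2, PGC and GIF. The labels' library protocol speaks of monocytes, and 12 monocyte markers summed to 8.62 to 15.1 CPM per library. Their part in the results below was not tested, and in bulk RNA fewer cells of a type and less RNA per cell cannot be told apart.

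The members took 2.35% and 2.30% of the counts of the PBS libraries, 4.70% of rIL-17B replicate 1 and 2.78% of rIL-17B replicate 2. Their log2 ratio in rIL-17B replicate 1 ran from 0.90 to 1.36 with a median of 1.01, which is 2.01-fold, and 91 of the 174 were at least 2-fold above PBS (background 3.05%, 102 of 3343 genes). Over all 3343 genes the median was 0.31, so the members' median lay 0.70 above that of the typical gene. The same ratios ran from -11.7 to 1.42 over the 3343 genes. While 260 of those genes were at least 2-fold below PBS and 97 at least 10-fold below, the highest ratio was that of MUC16, a mucin dropped by name. Of 8162 genes below the count minimum with at least 300 counts over the 4 libraries, 185 were at least 2-fold above PBS and 0 at least 4-fold, while 1273 were at least 2-fold below, and the highest log2 ratio was 1.66. With TMM-scaled library sizes the median ratio of replicate 1 fell by 0.14 over the members and over all 3343 genes, and 64 genes were left past the limit of 0.9, all 64 of them members. This scaling shifts all genes of a library alike.

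**Figure D1:**
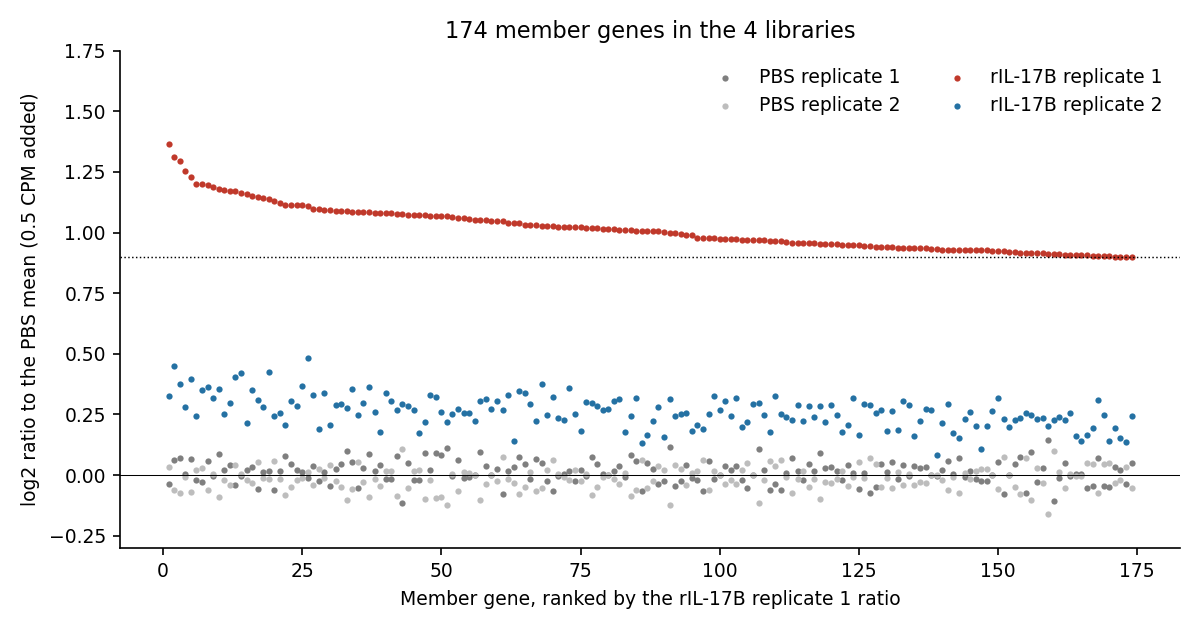
log2 ratio of each of the 4 libraries to the PBS mean, with 0.5 CPM added, for the 174 members ranked by rIL-17B replicate 1, with the limit of 0.9 dotted. Red points (rIL-17B replicate 1) run from 0.90 to 1.36, blue points (rIL-17B replicate 2) from 0.08 to 0.48, and the grey PBS points lie around 0.

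At the limit, the last members were TUBA1C, NID2 and ARHGAP11A with log2 ratios of 0.9012, 0.9008 and 0.9002, and the first genes left outside were MFSD12, HSD17B10 and SSRP1 with 0.8998, 0.8994 and 0.8985. No gap separated members from other genes at that edge.

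rIL-17B replicate 2 was not used by the rule. It lay above both PBS libraries in all 174 members, against 1862 of the 3343 genes (background 55.7%). It was also below rIL-17B replicate 1 in all 174, an order that the rule favours. Members needed a log2 ratio of 0.9 in rIL-17B replicate 1, and the highest of rIL-17B replicate 2 over the 3343 genes was 0.48. In the members the log2 ratio of rIL-17B replicate 2 to the PBS mean ran from 0.08 to 0.48. The median was 0.26, or 1.196-fold, against a median of 0.05 over the 3343 genes. The PBS libraries differed from each other by a median of -0.03 in the members. A margin of 1.2-fold above the higher PBS library was reached by 51 members and by 71 of the 3343 genes (background 2.12%). Because the PBS libraries entered both the rule and these ratios, the controls were also separated. With members chosen against PBS replicate 1 alone, rIL-17B replicate 2 was above PBS replicate 2 in 167 of 167 (background 64.6%), with a median log2 ratio of 0.26. With members chosen against PBS replicate 2 alone, it was above PBS replicate 1 in 184 of 184 (background 67.4%), with a median of 0.24. The members' shift in the second treated library was thus in the same direction as in the first. It was smaller by a median log2 difference of 0.74 between the 2 libraries (range 0.59 to 1.04), as the choice by rIL-17B replicate 1 favours. Over all 3343 genes rIL-17B replicate 1 was above rIL-17B replicate 2 by a median log2 difference of 0.25. The mesenchymal marker sum of rIL-17B replicate 2, 48721 CPM, was also between those of PBS and replicate 1, and its part in these ratios was not tested.

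**Figure D2:**
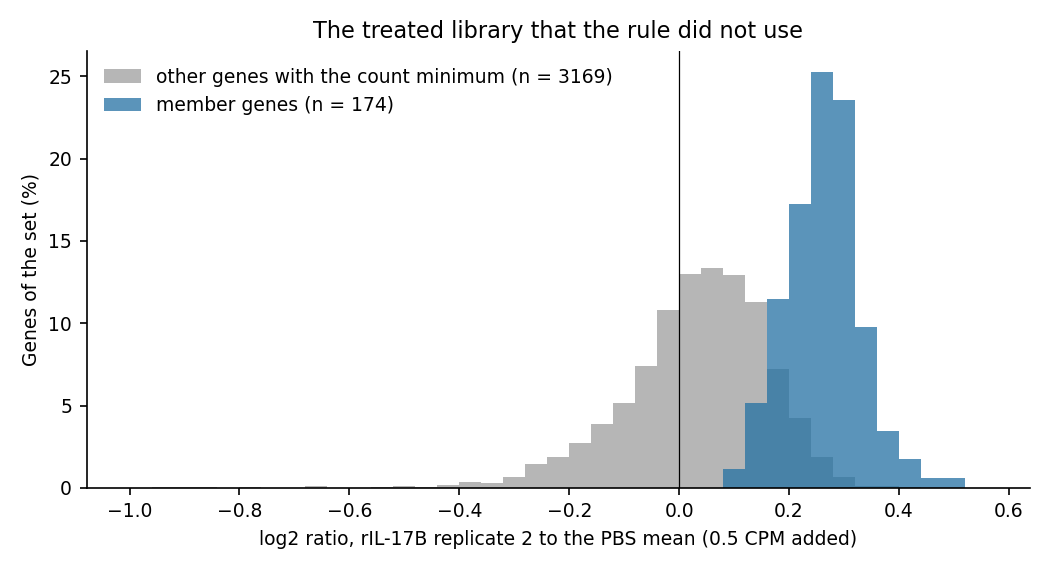
Distribution of the log2 ratio of rIL-17B replicate 2 to the PBS mean, with 0.5 CPM added, for the 174 members (blue) and the other 3169 genes with the count minimum (grey), each as a percentage of its set. The members lie between 0.08 and 0.48 and all to the right of 0, while the other genes range from -0.93 to 0.42.

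Tests were run with edgeR's quasi-likelihood test and Benjamini-Hochberg adjustment over all genes tested. In rIL-17B replicate 2 against both PBS libraries, 52 of the 174 members were higher at an adjusted p under 0.05, which is 29.9% of them. Over all 17103 genes tested 110 were higher (background 0.643%), and 75 of these were among the 3343 genes with the count minimum, 2.24% of them. Here 1 library stands for the treated group and is assumed to vary as the PBS libraries do. No count of rIL-17B replicate 1 enters beyond the choice of members, but both PBS libraries entered the rule as well as this test. The controls were separated above for the ratios and not for these calls. A gene at an adjusted p under 0.05 is said below to be called or to pass, and replicates 1 and 2 named without a group are those of rIL-17B. With upper-quartile normalization 32 of the 52 kept the call (background 0.427%), and with at least 10 counts in every library 35 did (background 0.424%). Of the genes described below, CDC20, CENPF, KIF18B, ITPR1, IGF1R, ID3, CD24, DSP and EZR lost the call with upper-quartile normalization, and CENPF, KIF18B, HMGB2, ITPR1, IGF1R, ID3, CD24 and DSP with the count filter. With all 4 libraries, 0 of 16361 genes were called (background 0%) and so 0 members, the smallest adjusted p being 0.661. At an unadjusted p under 0.05 the edgeR fit held 226 genes, of which 148 were higher with rIL-17B (background 0.905%), and 7 of those were members: OLFM1, ENO3, TK1, BUB1B, VAV3, CCNB1 and RRM1. DESeq2 also called 0 genes. At an unadjusted p under 0.05 it held 364 genes higher with rIL-17B (background 2.22%) and 112 members, in a fit that includes the library that chose them. All 174 members had a positive log2 fold change in the 4-library fit, with a median of 0.59, a direction that the choice of members favours. The fits with and without rIL-17B replicate 1 differ in their biological coefficient of variation, 0.443 for 4 libraries and 0.0624 for 3.

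Genes of mitosis were the most numerous members on any of the function lists. Of 64 genes on a cell cycle and mitosis list, 44 had the count minimum and 28 of these were members, or 63.6% against 5.20% of all genes with that minimum. The 44 genes had median log2 ratios of 0.99 in replicate 1 and 0.24 in replicate 2, and all 3343 genes 0.31 and 0.05. In rIL-17B replicate 2 the 28 members had log2 ratios from 0.18 to 0.43. BUB1B, a kinase of the spindle checkpoint, had 72.5 and 70.8 CPM with PBS, 158 CPM in replicate 1 and 96.5 CPM in replicate 2. Its log2 fold change in replicate 2 was 0.42 ± 0.10 (SE, adjusted p = 0.00104, edgeR). CCNB1, the B-type cyclin that starts mitosis, had 135 and 126 CPM with PBS, 266 CPM in replicate 1 and 169 CPM in replicate 2. Replicate 2 was above both PBS libraries, with a log2 fold change of 0.37 ± 0.09 (SE, adjusted p = 0.00221, edgeR). CCNB2, its close relative, had 79.3 and 73.8 CPM with PBS, 162 CPM in replicate 1 and 93.3 CPM in replicate 2, and was not called in replicate 2 (adjusted p = 0.0858, edgeR). PLK1, the kinase that drives spindle assembly and cytokinesis, had 70.5 and 72.2 CPM with PBS, 151 CPM in replicate 1 and 90.3 CPM in replicate 2. CDC20, which activates the anaphase-promoting complex, had 95.1 and 97.5 CPM with PBS, 204 CPM in replicate 1 and 119 CPM in replicate 2. Both were called in replicate 2, with adjusted p = 0.0228 and 0.0312 (edgeR).

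MKI67, which coats mitotic chromosomes and serves as a proliferation marker, had 226 and 219 CPM with PBS, 497 CPM in replicate 1 and 258 CPM in replicate 2. It was among the 20 largest ratios of replicate 1 at 1.16, while its ratio in replicate 2, 0.21, was below the members' median. TOP2A, the topoisomerase that untangles sister chromatids, had 324 and 306 CPM with PBS, 628 CPM in replicate 1 and 377 CPM in replicate 2. CENPF, a kinetochore protein, had 311 and 285 CPM with PBS, 623 CPM in replicate 1 and 361 CPM in replicate 2, and TPX2, which activates Aurora A on the spindle, had 187 and 185 CPM with PBS, 398 CPM in replicate 1 and 235 CPM in replicate 2. In these genes too the order was replicate 1, replicate 2, then PBS, and CENPF and TPX2 passed the test in replicate 2 (adjusted p = 0.0417 and 0.00622, edgeR). FOXM1, a transcription factor of G2 genes, had 118 and 128 CPM with PBS, 270.1 CPM in replicate 1 and 146 CPM in replicate 2, and MYBL2, which encodes B-MYB, had 97.7 and 101 CPM with PBS, 214 CPM in replicate 1 and 114 CPM in replicate 2. Neither was called in replicate 2 (adjusted p = 0.121 and 0.322, edgeR).

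Of 17 kinesin genes with the count minimum, 9 were members. Counts of replicate 1 enter that minimum, which favours genes that are high in it. The 38 kinesins tested in the 4-library fit had median log2 ratios of 0.30 in replicate 1 and 0.05 in replicate 2. Those of the 3343 genes were 0.31 and 0.05, but all of these genes had the count minimum and only some of the 38 kinesins did. KIF20A, which acts in cytokinesis, had 116 and 103 CPM with PBS, 249 CPM in replicate 1 and 140.4 CPM in replicate 2 and was called in replicate 2 with a log2 fold change of 0.35 ± 0.09 (SE, adjusted p = 0.00554, edgeR). KIF18B, which shortens astral microtubules, had 48.9 and 50.8 CPM with PBS, 115 CPM in replicate 1 and 63.7 CPM in replicate 2 and was called as well (adjusted p = 0.0313, edgeR). KIF2C, KIF4A, KIF20B, KIF22, KIF23, KIF26A and KIFC1 were the others, most of them mitotic motors. Among the 8 kinesins with the count minimum that were not members, the cargo carriers KIF5B, KIF1B and KIF21A had log2 ratios in replicate 1 of 0.12, 0.10 and -0.01, and KIF1C, also a cargo carrier, had 0.48. Subunits of condensin, which compacts chromosomes, were members in NCAPD2, NCAPD3, NCAPG and NCAPG2, with SMC1A of cohesin as the fifth of 14 condensin and cohesin genes. The groups of kinesins, condensin and cohesin subunits, nucleotide synthesis enzymes, chromatin maintenance genes, muscle-type genes and chaperonin subunits were drawn up after the members had been seen.

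The 16 cell cycle genes with the count minimum that were not members included genes close to the limit and genes below PBS. CDK1, the partner of cyclin B, had 89.4 and 87.0 CPM with PBS, 165 CPM in replicate 1 and 107 CPM in replicate 2, a log2 ratio of 0.897. KIF11, TACC3 and CCNA2 were at 0.893, 0.892 and 0.885. CDKN1A, the p21 inhibitor of cyclin-dependent kinases, had 347 and 345 CPM with PBS, 68.4 CPM in replicate 1 and 302 CPM in replicate 2. Cyclin D1 (CCND1) had 178 and 157 CPM with PBS, 89.2 CPM in replicate 1 and 156 CPM in replicate 2. In replicate 1 the log2 ratios were -2.33 for CDKN1A and -0.91 for CCND1, and in replicate 2 -0.20 and -0.10.

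DNA replication and repair genes formed the next group, with 8 members among 20 listed genes with the count minimum (40.0%), 4 of them called in replicate 2. The 20 genes had median log2 ratios of 0.85 in replicate 1 and 0.23 in replicate 2. TK1, the thymidine kinase that salvages thymidine, had 78.0 and 78.4 CPM with PBS, 176 CPM in replicate 1 and 105 CPM in replicate 2. The log2 fold change in replicate 2 was 0.42 ± 0.09 (SE, adjusted p = 0.00102, edgeR). RRM1, the large subunit of ribonucleotide reductase, had 163 and 159 CPM with PBS, 327 CPM in replicate 1 and 206 CPM in replicate 2 and was called in replicate 2 (adjusted p = 0.00325, edgeR), and its partner RRM2 had 66.6 and 69.1 CPM with PBS, 136 CPM in replicate 1 and 80.9 CPM in replicate 2 and was not (adjusted p = 0.168, edgeR). FEN1, which trims Okazaki fragments, had 113 and 107 CPM with PBS, 228 CPM in replicate 1 and 136 CPM in replicate 2. It was called in replicate 2 (adjusted p = 0.0228, edgeR). Other members of the list were UHRF1, which keeps DNA methylation through replication, FANCD2, of crosslink repair, and POLA1, the catalytic subunit of the priming polymerase, with log2 ratios in replicate 2 of 0.25, 0.31 and 0.28 that did not pass. FANCI, the partner of FANCD2, had 83.9 and 82.6 CPM with PBS, 181 CPM in replicate 1 and 108 CPM in replicate 2 and passed (adjusted p = 0.00619, edgeR).

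All 12 other listed replication and repair genes with the count minimum had log2 ratios in replicate 1 between 0.36 and 0.87, so none lay below PBS. PCNA, the sliding clamp, was at 0.77 in replicate 1 and 0.22 in replicate 2. Of 15 nucleotide synthesis enzymes with the count minimum, 6 were members, namely CAD and CTPS1 of pyrimidine synthesis, PFAS of purine synthesis, and RRM1, RRM2 and TK1. CAD was among the 10 members with the smallest ratio in replicate 2. It had 171 and 183 CPM with PBS, 331 CPM in replicate 1 and 195 CPM in replicate 2, so that replicate 2 was close to the higher PBS library. Of 13 genes of chromatin maintenance 7 were members, among them EZH2, the H3K27 methyltransferase, with 77.7 and 72.2 CPM with PBS, 144 CPM in replicate 1 and 90.2 CPM in replicate 2, and HMGB2, a DNA-bending protein of dividing cells, with 147 and 125 CPM with PBS, 272 CPM in replicate 1 and 169 CPM in replicate 2. HMGB2 was called in replicate 2 (adjusted p = 0.0215, edgeR), EZH2 was not (adjusted p = 0.125, edgeR).

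**Figure D3:**
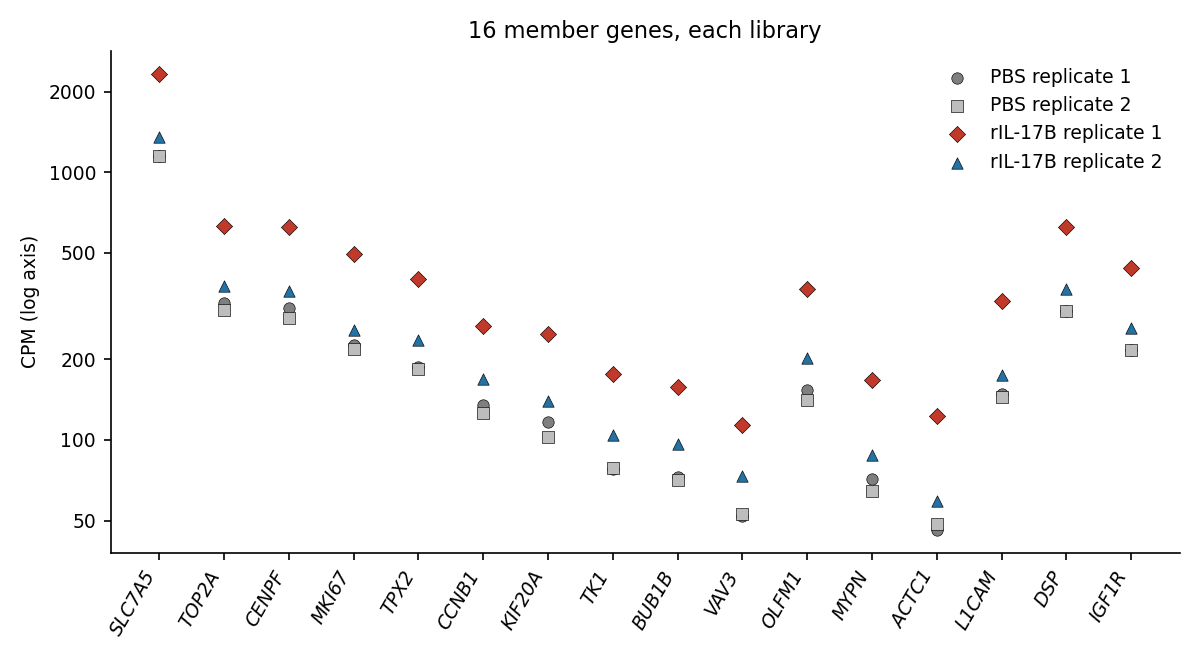
CPM on a log axis of 16 members in each of the 4 libraries, one symbol per library. In every gene shown rIL-17B replicate 1 is highest, which the choice of members favours, rIL-17B replicate 2 is next and both PBS libraries are lowest. Levels are to be compared within a gene, since CPM is not corrected for gene length.

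RefSeq promoters were found for 145 of the 174 members, 2813 of the 3343 genes with the count minimum, and 27305 genes in all. The CHR letters TTTGAA on either strand were in 47 promoters of members (32.4%), against 9.31% of the genes with the count minimum and 15.4% of all promoters. Among members on the cell cycle list they were in 16 of 23 promoters (69.6%), and among the other members in 25.4%. Between 100 bases before and 50 bases after the start, they were in 29 promoters of members (20%) against 3.84% of the genes with the count minimum. The CCAAT letters were in 74 promoters of members (51.0%), against 37.6% of genes with the count minimum, and in 19 of the 23 cell cycle members (82.6%). Both were present in 22.1% of members' promoters and in 4.34% of those of genes with the count minimum. The E2F letters TTCCCGC were in 9.66% of members and 10.98% of the genes with the count minimum, and in 0 of the 23 cell cycle members. The TATA box letters TATAAA were in 11.7% of members and 6.15% of genes with the count minimum, and the GC box letters GGGCGG in 69.7% and 73.8%. The CHR, CCAAT and E2F letters were chosen for search after the members had been seen, and a match of letters is a description, not a binding site. The median share of G and C bases was 64% in promoters of members, 66.3% in those of genes with the count minimum and 58.3% in all promoters. Its part in the motif shares was not tested. The 47 members with the CHR letters had median log2 ratios of 1.03 in replicate 1 and 0.27 in replicate 2, and the 98 without them 0.97 and 0.25.

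Of the 174 members 118 were on none of the function lists, among them mitotic genes such as KIF18B and NCAPG. The member with the largest ratio in replicate 1 was ACTC1, the cardiac alpha-actin, with 733 and 624 counts with PBS, 1790 counts in replicate 1 and 1042 counts in replicate 2. In CPM these were 46.1, 48.4, 122 and 59.4, with log2 ratios to PBS of 1.36 and 0.33 in the 2 treated libraries. It was not called in replicate 2 (log2 fold change 0.33 ± 0.11 SE, adjusted p = 0.0633, edgeR). MYPN, a protein of the sarcomeric Z-disc, had 71.2 and 64.6 CPM with PBS, 167 CPM in replicate 1 and 88.1 CPM in replicate 2 and was called (log2 fold change 0.37 ± 0.10 SE, adjusted p = 0.00943, edgeR). ENO3, the muscle enolase, had 49.6 and 52.6 CPM with PBS, 116 CPM in replicate 1 and 67.7 CPM in replicate 2 and was called as well (adjusted p = 0.0069, edgeR). These, and MYLK3, the cardiac myosin light chain kinase, were among the 5 members of 9 muscle-type genes with the count minimum. The other 4 lay below PBS in replicate 1, with FLNC, a filamin of muscle, at 152 and 151 CPM with PBS, 0.479 CPM in replicate 1 and 130 CPM in replicate 2. Counts of replicate 1 enter the count minimum, which favours muscle-type genes that are high in it. The 32 muscle-type genes tested in the 4-library fit had median log2 ratios of -0.30 in replicate 1 and -0.15 in replicate 2.

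OLFM1, a secreted olfactomedin, had 154 and 141 CPM with PBS, 367 CPM in replicate 1 and 202 CPM in replicate 2. It had the smallest adjusted p of the members in replicate 2, with a log2 fold change of 0.45 ± 0.09 (SE, adjusted p = 4.52e-05, edgeR). VAV3, a guanine nucleotide exchange factor, had 52.1 and 52.9 CPM with PBS, 114 CPM in replicate 1 and 73.6 CPM in replicate 2. Its ratio in replicate 2 was the largest of the 174 (log2 fold change 0.48 ± 0.10 SE, adjusted p = 3.17e-04, edgeR), and its PBS libraries were within 1 CPM of each other. L1CAM, an adhesion molecule of neurons and of many carcinomas, had 148 and 144 CPM with PBS, 331 CPM in replicate 1 and 174 CPM in replicate 2, and PIEZO2, a mechanosensitive ion channel, had 80.2 and 75.7 CPM with PBS, 176 CPM in replicate 1 and 96.0 CPM in replicate 2. Neither passed in replicate 2 (adjusted p = 0.0992 and 0.0598, edgeR). ITPR1, an IP3-gated calcium channel of the endoplasmic reticulum, had 302 and 297 CPM with PBS, 663 CPM in replicate 1 and 364 CPM in replicate 2 and passed (adjusted p = 0.0328, edgeR). PDE1A, a calmodulin-dependent phosphodiesterase, had 68.7 and 63.1 CPM with PBS, 152 CPM in replicate 1 and 84.9 CPM in replicate 2 and passed too (adjusted p = 0.0136, edgeR). DIO2, the deiodinase that activates thyroid hormone, had 95.7 and 84.7 CPM with PBS, 192 CPM in replicate 1 and 116 CPM in replicate 2 and was called (adjusted p = 0.00619, edgeR). KANK4, a cortical adaptor protein, had 152 CPM in both PBS libraries, 347 CPM in replicate 1 and 189.9 CPM in replicate 2 and was called (adjusted p = 0.0145, edgeR). AHNAK2 had 214 and 220.4 CPM with PBS, 499 CPM in replicate 1 and 257 CPM in replicate 2 and CASC19, a long noncoding RNA, had 125 and 120.0 CPM with PBS, 273 CPM in replicate 1 and 157 CPM in replicate 2, of which CASC19 was called (adjusted p = 0.00532, edgeR). In each gene of this paragraph rIL-17B replicate 1 was at least 2-fold above PBS and replicate 2 at most 1.40-fold above it.

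Few listed genes of growth signalling reached the count minimum. Of 12 growth factor receptors and ligands with that minimum, 8 lay below PBS in replicate 1. The 12 had median log2 ratios of -0.74 in replicate 1 and -0.13 in replicate 2. IGF1R, the receptor of insulin-like growth factor 1, was the single member among them (8.33%, background 5.20%). It had 217 CPM in both PBS libraries, 439 CPM in replicate 1 and 262 CPM in replicate 2, with a log2 fold change in replicate 2 of 0.27 ± 0.08 (SE, adjusted p = 0.048, edgeR). SGK1, a kinase activated downstream of PI3K, had 426 and 403 CPM with PBS, 793 CPM in replicate 1 and 512 CPM in replicate 2 and was called (adjusted p = 0.0115, edgeR). ID3, an inhibitor of basic helix-loop-helix factors, had 321 CPM in both PBS libraries, 631 CPM in replicate 1 and 387 CPM in replicate 2, and CD24, a surface glycoprotein used as a stem cell marker, had 253 and 237 CPM with PBS, 475 CPM in replicate 1 and 298 CPM in replicate 2. Both were called in replicate 2 (adjusted p = 0.0445 and 0.0336, edgeR), and they were 2 of 10 WNT, stem cell and crypt genes with the count minimum. That share was 20% (background 5.20%). Of those 10 genes 4 lay below PBS in replicate 1, and the 10 had median log2 ratios of 0.05 in replicate 1 and -2.0e-05 in replicate 2. Medians of all genes with the count minimum were 0.31 and 0.05. The autophagy and lysosome share below, 4.35%, was near the 5.20% of all genes with the count minimum. The other lists that follow were too short to show a lack of members. None of 3 IL-17, NF-kB and chemokine genes, 6 interferon genes, 11 PI3K-AKT genes and 5 apoptosis genes with the count minimum was a member. On the autophagy and lysosome list 1 of 23 was, CTSC, a lysosomal protease, with 180.0 and 173 CPM with PBS, 338 CPM in replicate 1 and 206 CPM in replicate 2 and no call in replicate 2 (adjusted p = 0.172, edgeR).

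Of 7 epithelial junction genes with the count minimum 2 were members, DSP and DSG2, and the 7 had a median log2 ratio of 0.74 in replicate 1 and 0.0026 in replicate 2. Of 5 brush border genes 1 was a member, EZR, and 3 of the 5 lay below PBS in replicate 1, with a median of -0.24. DSP, the plaque protein desmoplakin, had 303 CPM in both PBS libraries, 627 CPM in replicate 1 and 365 CPM in replicate 2, and its cadherin partner DSG2 had 60.2 and 59.7 CPM with PBS, 122 CPM in replicate 1 and 70.3 CPM in replicate 2. DSP was called in replicate 2 (adjusted p = 0.0445, edgeR) and DSG2 was not (adjusted p = 0.267, edgeR). EZR, which links microvilli to actin, had 214 and 211 CPM with PBS, 409.8 CPM in replicate 1 and 260.0 CPM in replicate 2 and was called (adjusted p = 0.0291, edgeR). TNS4, a focal adhesion protein of epithelia, had 70.0 and 69.4 CPM with PBS, 167 CPM in replicate 1 and 84.8 CPM in replicate 2, MISP, which positions the spindle at the cortex, had 56.8 and 61.5 CPM with PBS, 132 CPM in replicate 1 and 73.4 CPM in replicate 2, and SFN, a 14-3-3 protein of epithelial cells, had 64.1 and 61.5 CPM with PBS, 122 CPM in replicate 1 and 73.1 CPM in replicate 2. None of these 3 was called in replicate 2 (adjusted p = 0.0987, 0.0643 and 0.299, edgeR). The mesenchymal marker sums beside them are those given above, 1282 CPM in replicate 1 against 58203 and 57114 CPM with PBS.

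Shares of metabolic and protein synthesis lists are given here against the 5.20% of all genes with the count minimum. Of 17 MYC family and translation genes 3 were members (17.6%), CCT5, CAD and EEF1A2, of which CCT5 and EEF1A2 were called in replicate 2. SLC7A5, the large neutral amino acid transporter LAT1, had the most counts of all members, with 1145 and 1152 CPM with PBS, 2336 CPM in replicate 1 and 1353 CPM in replicate 2. Replicate 2 was above both PBS libraries, with a log2 fold change of 0.23 ± 0.08 (SE, adjusted p = 0.0633, edgeR), which did not pass. PRDX1, a peroxiredoxin, had the highest level per kilobase of exon among members, at 282 and 253 CPM per kb with PBS, 543 in replicate 1 and 329 in replicate 2, followed in replicate 1 by SLC7A5 at 492 and ID3 at 351 CPM per kb. PRDX1 passed in replicate 2 (adjusted p = 0.016, edgeR). CCT5, a subunit of the cytosolic chaperonin, had 653 and 631 CPM with PBS, 1367 CPM in replicate 1 and 783 CPM in replicate 2 and was called (adjusted p = 0.0169, edgeR), and was the single member among 8 subunits of that complex. EEF1A2, a tissue-restricted translation elongation factor, had 78.6 and 71.3 CPM with PBS, 176 CPM in replicate 1 and 98.8 CPM in replicate 2 and was called (log2 fold change 0.39 ± 0.09 SE, adjusted p = 0.00325, edgeR). PEG10, an imprinted retrotransposon-derived gene, had 623 and 607 CPM with PBS, 1208 CPM in replicate 1 and 728 CPM in replicate 2, without a call in replicate 2 (adjusted p = 0.072, edgeR). Of 23 glycolysis genes 1 was a member (4.35%), of 32 mitochondrial metabolism genes 3 (SDHA, PC and PHB, 9.38%), and of 25 nucleolus genes 2 (TCOF1 and DKC1, 8%). Of 19 fatty acid and cholesterol synthesis genes 0 were members, a list too short to show a lack of them. The 25 nucleolus genes had a median log2 ratio of 0.71 in replicate 1 and 0.16 in replicate 2, above the medians of all genes, 0.31 and 0.05.

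The members with the smallest shift in rIL-17B replicate 2 were DCAF1, a substrate receptor of a ubiquitin ligase, with 91.0 and 91.3 CPM with PBS, 174 CPM in replicate 1 and 96.5 CPM in replicate 2, and WHRN, the scaffold protein whirlin, with 58.0 and 60.1 CPM with PBS, 113 CPM in replicate 1 and 63.7 CPM in replicate 2. Their log2 fold changes in replicate 2 were 0.08 ± 0.09 (SE, adjusted p = 0.798, edgeR) and 0.11 ± 0.10 (SE, adjusted p = 0.731, edgeR). Even in these replicate 2 was above both PBS libraries. NID2, GTF3C2, PHB, TUBA1C, MAPKAPK3 and NUP188 had log2 ratios in replicate 2 between 0.14 and 0.16 and did not pass.

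Of the 174 members 172 were annotated as protein coding and 173 were located in GENCODE 29. They lay on all chromosomes with at least 20 genes at the count minimum except 13 (0 of 44) and 22 (0 of 65), and the other chromosomes held between 2.19% (chromosome 19, 4 of 183) and 9.38% (chromosome 18, 3 of 32) against 5.20% in all. ACTC1 lay at chr15:34788095-34795726, OLFM1 at chr9:135075422-135121179, VAV3 at chr1:107571160-107965144, BUB1B at chr15:40161023-40221136 and TK1 at chr17:78174075-78187233 (GRCh38). Because the use of strand in counting is not given in the sources used here, the 75 members whose exons overlap another gene, 66 of them on the opposite strand, may hold counts of that gene, ACTC1 among them. Pseudogene copies that may share reads are named for 28 members, such as PHB, SNRPG, TUBB4B and H2AFZ.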

How the data were processed

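RNA from HGC-27 cells was sequenced after Smart-seq2 cDNA synthesis with an oligo-dT primer. The authors deposited raw read counts per gene name, without normalization. The submitters' processing notes name HISAT2 2.1.0, Bowtie2 2.2.3, TopHat2, HTSeq 0.6.0 and hg38, with no role or order. Which annotation was used, and whether counting was stranded, is not given in the sources used here. Repeated names were used once, names turned into dates were left out, and genes absent from a library counted as 0. Totals are of these counts, and floors of 3 counts cover counting error only, since PCR copies are counted separately.

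The members, gene lists, tests and alternatives were chosen with earlier results of these data known. Ratios used CPM of library totals with 0.5 CPM added. Tests used edgeR 4.0.16 in R 4.3.3 (TMM, filterByExpr, quasi-likelihood F test, Benjamini-Hochberg adjustment, threshold 0.05) and were tested on simulated data. The simulation had less spread than the 4-library fit and larger fold changes than those of rIL-17B replicate 2 in the members. It does not show which smaller changes the tests would miss. SE is the log2 fold change divided by the root of F. DESeq2 1.42.0, other normalizations, filters, a replicate block and leaving out each library were alternatives. Genes were named by a rule: the 20 largest ratios in rIL-17B replicate 1, the 15 highest CPM there, the 10 largest and 10 smallest ratios in rIL-17B replicate 2, up to 6 members per list, and the 3 genes nearest the limit on each side. This gave 67 members, of which some are not reported here. Other genes named were chosen after their values were seen. Gene positions are from GENCODE 29 and promoters from RefSeq. Figures were drawn in Python 3.11.15 with matplotlib 3.10.9.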

Additional observations from a re-analysis of the deposited data

How the results depend on the processing

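The 174 members depended on the scaling and the limits. TMM-scaled library sizes left 64, a log2 limit of 1 left 91, a count minimum of 1000 gave 352, and centring each ratio on the median of all genes with the count minimum, an alternative added after the data were seen, left 5. Without 1 PBS library the rule gave 167 to 184 genes, sharing 153 and 161 with the 174. rIL-17B replicate 2 was above both PBS libraries in all 174 members also with TMM sizes and after centring, and in 51 by a margin of 1.2-fold. Its median log2 ratio over the members was 0.25 to 0.27 without 1 PBS library and 0.20 after the same centring. Of the 52 members called in replicate 2, 32 kept the call with upper-quartile normalization, 35 with at least 10 counts in every library, and 31 under both.

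The 4-library comparison called 0 genes under every normalization and filter tried. Leaving out 1 library gave 0 to 9489 genes and 0 to 174 members: 0 without either PBS library, 504 genes and 52 members without rIL-17B replicate 1, and 9489 genes and 174 members without rIL-17B replicate 2, a fit that rests on the library that chose the members. With a replicate block 0 genes and 0 members were called. Libraries with the same number correlated by 0.080 in their deviations from the group means over the 2 pairs, and nothing in the labels pairs them. With 2 libraries per group, 1 of which stands apart, the 4-library fit has a wide spread, and a fold of a single library has no replicate check.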
